A study of Mus musculus with 26 samples.

Results

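The effect of a gene trap in Uty on the cardiac left ventricle was measured in sham-operated male mice, across all genes. The comparison used 12 of the 26 libraries of the study, 6 from gene-trap and 6 from wild-type mice, which were assigned from their titles and set against each other as gene trap minus wild type. Mice of both groups had a sham operation at about 10 days of age, so that the testes were kept, and their ventricles were frozen at 40 days. The gene-trap mice carried the allele UtyGt(XS0378)Wtsi, an inserted cassette in intron 4 of Uty, and the wild-type mice were isogenic controls, C57BL/6.Y<129P2>, a strain that by its name carries a 129P2 Y chromosome on a C57BL/6 background. The remaining 14 libraries, from castrated mice of both genotypes, enter only where the genotype effect in sham is set against that in castrated ventricles. Transcripts were counted with 3′ end sequencing of polyadenylated RNA, in which a tag comes from the last part of a transcript. Of 47642 genes with counts, 11569 were abundant enough to be tested. Libraries of a group are separate samples in the labels, which do not tie them to animals, and a p-value therefore reflects only how far these samples vary.

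Uty encodes a protein closely related to Kdm6a, its X-linked partner, which removes methyl groups from lysine 27 of histone H3 and works in complexes that methylate lysine 4. Enzymatic activity of the Uty protein is weak, and part of what these proteins do in development does not need it. Uty lies on the short arm of the mouse Y chromosome among a small group of widely expressed genes that kept an X-linked partner, including Ddx3y, an RNA helicase gene, Eif2s3y, which encodes a subunit of the translation initiation factor eIF2, and Kdm5d, which encodes a histone H3 lysine 4 demethylase. A gene trap carries a splice acceptor and a stop for transcription, so that the host transcript ends in the cassette.

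In GRCm38 the 4 genes lie within a short stretch of the Y chromosome. Uty spans Y 1096861 to 1245759 on the minus strand, and its trapped intron 4 spans 1199514 to 1224496, a length of 24983 bp. The last exon of the annotated Uty transcript with 27 exons, at 1097144 to 1098573, lies past the trap in the direction of transcription. Counts are given per gene, so the position of tags within Uty was not seen. Ddx3y (1260771 to 1286629, minus strand) lies upstream of Uty with 15012 bp between the genes and 36275 bp between it and the trapped intron. Eif2s3y (1010543 to 1028847, plus strand) lies on the downstream side, 68014 bp from Uty, and Kdm5d (897788 to 956786, plus strand) lies 140075 bp from it. The promoters of the 3 Y-linked genes of this group that passed the test are shown because they lie outside the trapped intron. Each sequence covers 250 bases before and 50 after the start annotated in RefSeq (GRCm38.p6), 5′ to 3′ on the strand of the gene. Capitals mark the GC-box letters GGGCGG or their reverse complement CCGCCC.
Uty (chrY:1245710-1246009, minus strand): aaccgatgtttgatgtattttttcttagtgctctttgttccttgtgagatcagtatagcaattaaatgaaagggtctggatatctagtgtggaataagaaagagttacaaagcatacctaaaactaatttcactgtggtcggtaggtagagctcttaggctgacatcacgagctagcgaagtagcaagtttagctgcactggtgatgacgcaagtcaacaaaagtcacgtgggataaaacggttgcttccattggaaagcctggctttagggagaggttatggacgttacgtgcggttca
Ddx3y (chrY:1286564-1286863, minus strand): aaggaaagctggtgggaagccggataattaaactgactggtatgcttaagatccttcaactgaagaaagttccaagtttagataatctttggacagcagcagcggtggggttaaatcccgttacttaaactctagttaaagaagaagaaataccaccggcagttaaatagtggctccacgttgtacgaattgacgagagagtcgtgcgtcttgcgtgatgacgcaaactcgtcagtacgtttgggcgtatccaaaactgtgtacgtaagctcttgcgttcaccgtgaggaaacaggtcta
Eif2s3y (chrY:1010345-1010644, plus strand): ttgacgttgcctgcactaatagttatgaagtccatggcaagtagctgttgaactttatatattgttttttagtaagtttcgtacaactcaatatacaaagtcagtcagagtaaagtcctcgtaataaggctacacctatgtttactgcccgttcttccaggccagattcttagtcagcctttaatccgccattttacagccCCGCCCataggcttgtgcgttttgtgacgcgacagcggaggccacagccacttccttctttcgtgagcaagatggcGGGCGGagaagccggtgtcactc
The Eif2s3y promoter held 2 matches to these letters and those of Uty and Ddx3y held 0. A match was present in 11714 of 32851 RefSeq promoters of the same length (35.7%), so its presence describes the window and no more. The GC content was 42.3% for Uty, 45.0% for Ddx3y and 46.7% for Eif2s3y, against a median of 52.7% over all promoters, and CG dinucleotides numbered 10, 17 and 14 against a median of 7.

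The wild-type libraries were not alike, which bears on every count below. Along the first principal component of the 12 libraries, with 46.9% of the variance, wild-type replicates 1 to 5 scored -62.7 to -16.8, with replicate 4 the lowest. Wild-type replicate 6 scored 17.1, within the range of -0.631 to 44.1 of the gene-trap libraries. The slope of log2 expression on the GC content of transcript ends split the libraries in a similar way. It was 0.150 ± 0.131 per 10 points of GC in wild-type and -0.150 ± 0.117 in gene-trap libraries (SD, n = 6 each; two-sided exact permutation p = 0.00649, adjusted over 6 library measures 0.0130), with wild-type replicate 6 at -0.0529 and replicate 4 at 0.345. More genes had at least 1 count in gene-trap libraries, 16156 to 16700 against 15442 to 16138 (exact permutation p = 0.00216, the smallest that 6 against 6 can give, adjusted 0.0130). Reads without a unique alignment made up 42.7% ± 0.827 of the gene-trap and 44.6% ± 0.964 of the wild-type columns (exact permutation p = 0.00866, adjusted 0.0130). The share of mitochondrially encoded counts was 16.0% ± 1.43 and 15.8% ± 1.02 (exact permutation p = 0.768). Gene counts were 6357485 to 9397378 per library (exact permutation p = 0.234). At these depths the floor of 3 counts that an observed 0 still allows equals 0.319 to 0.472 per 1000000 counts before scaling. Levels are given in CPM, a gene's count per 1000000 counts of its library after scaling. The labels give no sequencing batch or date, so such a batch could not be examined.

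**Figure D1:**
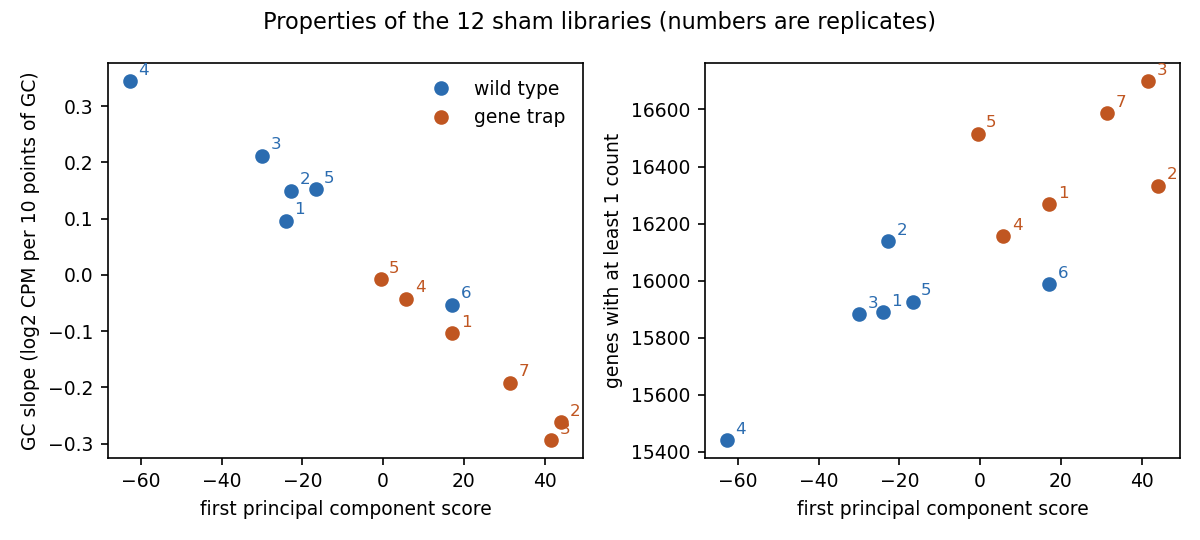
Scores of the 12 sham libraries on the first principal component (horizontal axis) against the slope of log2 CPM on transcript-end GC content per 10 points (left) and the number of genes with at least 1 count (right); each point is a library and its number the replicate. Wild-type replicate 6, at a score of 17.1, lies among the gene-trap libraries on the left, and replicate 4, at -62.7, lies farthest away.

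The tissue had the profile of ventricular muscle in both groups. The ventricular light chain genes Myl3 and Myl2 averaged 27194 and 6249 CPM over the 12 libraries, while the skeletal muscle myosin genes Myh1, Myh2 and Myh4 averaged 0.0208, 0.0114 and 0.0229 CPM. Of the atrial markers, the light chain genes Myl7 and Myl4 averaged 55.9 and 45.0 CPM, and Bmp10 had no count in any of the 12 libraries. In bulk tissue a lower level can come from fewer cells of a type or from less RNA per cell, and these cannot be told apart here. Whether counting used strand is not given in the sources, and a gene with a neighbour on the opposite strand at its 3′ end can hold tags of that neighbour.

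Uty tags nearly disappeared from gene-trap ventricles, and the neighbour upstream fell with it. Raw Uty counts were 47 to 74 in wild-type and 1 to 6 in gene-trap libraries. As levels these were 6.09 to 9.85 CPM (median 6.61) in wild-type and 0.117 to 0.703 CPM (median 0.408) in gene-trap libraries. The groups did not overlap, and wild-type replicate 6 was the lowest wild-type library at 6.09 CPM. On the log2 scale the fold change was -4.08 (edgeR adjusted p = 3.69e-07, SE 0.304). Ddx3y, which encodes a DEAD-box helicase that unwinds RNA during translation, was at 82.8 to 104 CPM (median 97.9) in wild-type and 8.84 to 23.5 CPM (median 14.8) in gene-trap libraries. All 6 gene-trap libraries lay far below the wild-type ones, among which replicate 6 stood at 99.6 CPM. The log2 fold change was -2.66 (edgeR adjusted p = 3.91e-06, SE 0.218). Tags of Ddx3y shared 0% of their sequence with other genes and those of Uty 1.05%, counted as 31-base words of the transcript ends.

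Eif2s3y went the other way. The gene, whose product carries the initiator tRNA to the ribosome, was counted at 1.6 to 2.59 CPM (median 2.03) in wild-type and 2.91 to 10.8 CPM (median 6.57) in gene-trap libraries. Gene-trap replicate 1 had the lowest of the gene-trap values and still lay above the highest wild-type value, which was that of replicate 6. The log2 fold change was 1.79 (edgeR adjusted p = 0.000451, SE 0.281). Kdm5d, at the far end of the group, overlapped between genotypes, at 1.49 to 5.06 CPM (median 3.16) and 2.10 to 3.51 CPM (median 2.72), and did not pass (log2 fold change -0.21, edgeR adjusted p = 0.587, SE 0.274). With the GC trend of each library removed, Uty was at -4.37, Ddx3y at -2.93 and Eif2s3y at 1.49 on the log2 scale, and the 3 genes still passed. Set against wild-type replicate 6 alone they were at -3.88, -2.74 and 1.41, with edgeR adjusted p of 0.073, 0.15 and 0.469, in a fit that passed no gene. Of the 5 Y-linked genes tested, the remaining one was Erdr1, in the region that pairs with the X chromosome, which is outside the rule for named genes and was chosen after its values were seen. It was at 2.33 to 14.9 CPM (median 5.74) in wild-type and 1.85 to 3.51 CPM (median 3.0) in gene-trap libraries, groups that overlapped, with a log2 fold change of -1.32 (edgeR adjusted p = 0.0159, SE 0.370). Usp9y, Zfy1 and Zfy2 had no count in any of the 12 libraries.

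Of the X-linked partners, Ddx3x rose. It was at 134 to 164 CPM (median 148) in wild-type and 179 to 208 CPM (median 193) in gene-trap libraries, with no overlap. On the log2 scale it rose by 0.39 (edgeR adjusted p = 0.00665, SE 0.0959). The change was 0.13 with the GC trend removed and no longer passed (edgeR adjusted p = 0.436). Kdm6a, the partner of Uty, was at 3.71 to 9.13 CPM (median 6.96) and 5.12 to 8.99 CPM (median 7.06). The ranges overlapped almost fully and the log2 fold change was 0.04 (edgeR adjusted p = 0.919, SE 0.227), which does not show that the levels were the same. Kdm5c had a log2 fold change of 0.29 (edgeR adjusted p = 0.143, SE 0.147). Eif2s3x had 0.09 (edgeR adjusted p = 0.842, SE 0.277), and 60.9% of the words of its transcript ends recur elsewhere, which makes the level uncertain.

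**Figure D2:**
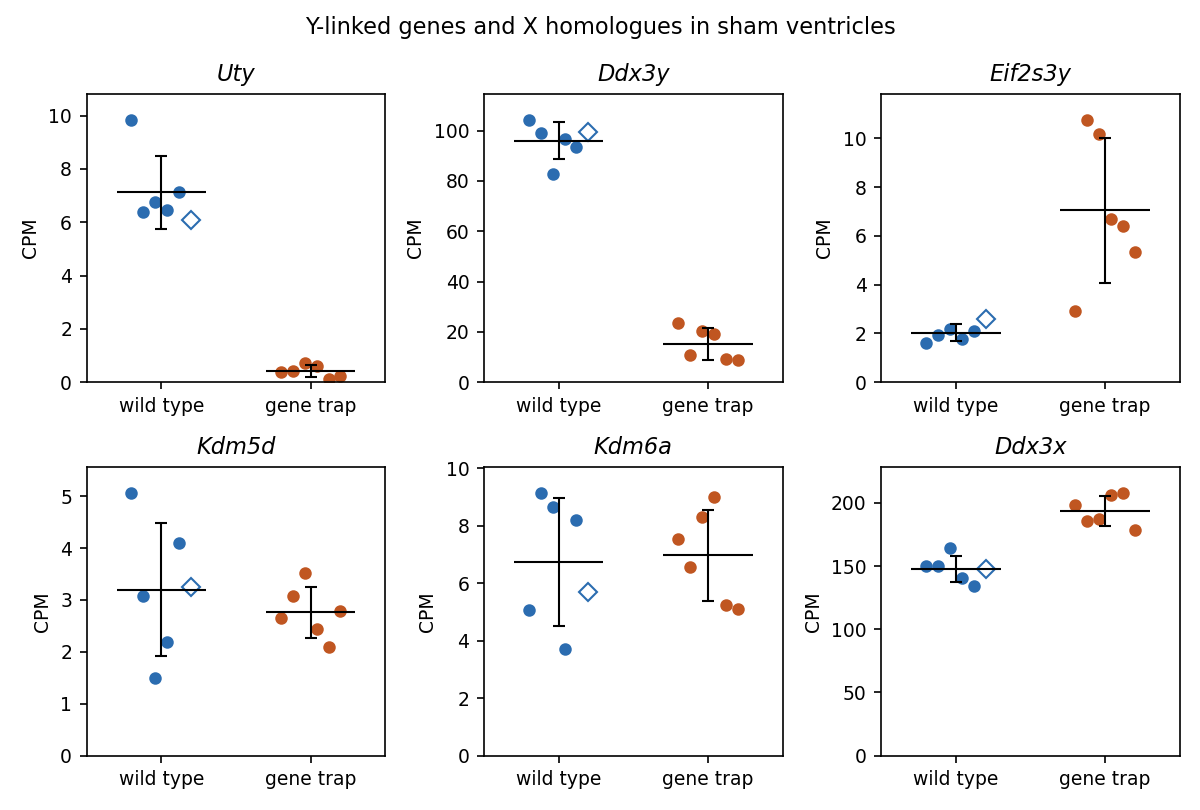
Levels in CPM of 4 Y-linked genes and 2 X-linked partners in the 6 wild-type (left, blue) and 6 gene-trap (right, orange) sham libraries; each point is a library, the open diamond is wild-type replicate 6, and bars give mean ± SD. Uty and Ddx3y show no overlap and lie lower in gene-trap libraries, Eif2s3y lies higher, and Kdm5d and Kdm6a overlap.

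Beyond the Y chromosome, expression differed broadly between the genotypes. Of 11569 genes tested, 3037 passed (edgeR quasi-likelihood test, Benjamini-Hochberg, threshold 0.05), which is 26.3% of the genes tested. In gene-trap ventricles 1379 genes rose (11.9%) and 1658 fell (14.3%), and 339 of the 3037 changed by more than 1 log2 unit. The median log2 fold change was 0.63 among the genes that rose and -0.63 among those that fell, and 0.02 over all genes tested. The groups did not overlap for 874 genes (7.55% of those tested), 462 (3.99%) higher and 412 (3.56%) lower in the gene-trap group, and 842 of these 874 also passed the test. A further 898 genes that passed overlapped through wild-type replicate 6 alone, and no such count was made for another library. When the 6 gene-trap libraries were set against that replicate only, edgeR passed 0 of 12665 genes, with 1311 at an unadjusted p under 0.05. The same fit with each of the other wild-type libraries alone passed 206, 8, 355, 3199 and 96 genes for replicates 1 to 5. Among protein-coding genes 1337 rose and 1602 fell of 11041 tested. Of 9 mitochondrial tRNA genes 5 fell, and of 120 long intergenic noncoding RNAs 7 rose and 15 fell.

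The genes that passed were sorted by the base composition of their transcript ends. The GC content of the last 400 nt had a median of 42.4% in genes that rose and 52.8% in genes that fell, against 46.6% over all genes tested. In the lowest of 10 bins of about equal size by GC content, 22.5% to 37.9%, 236 of 1157 rose and 30 fell. In the highest bin, 55.4% to 73.7%, 13 of 1156 rose and 458 fell. Against wild-type replicate 6 alone the median log2 fold change ran from 0.06 in the lowest bin to -0.16 in the highest, where the full comparison gave 0.27 and -0.41. With the GC trend of each library removed, 2176 genes passed (18.8%), 885 higher and 1291 lower, with 75 to 103 higher and 97 to 156 lower in each bin. Of these, 1682 had passed before with the same sign, 706 higher and 976 lower, and 1355 genes passed only without the removal. Over all genes tested that is 7.65% higher and 11.2% lower. The GC slope moved with genotype, and the only measure of its part in these changes is the comparison with the trend removed. Of the 131 genes named in the text by rule that passed, 114 still passed then. A value with the trend removed stands beside a gene described below where the call was lost or the log2 fold change moved by more than 1.5 times.

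**Figure D3:**
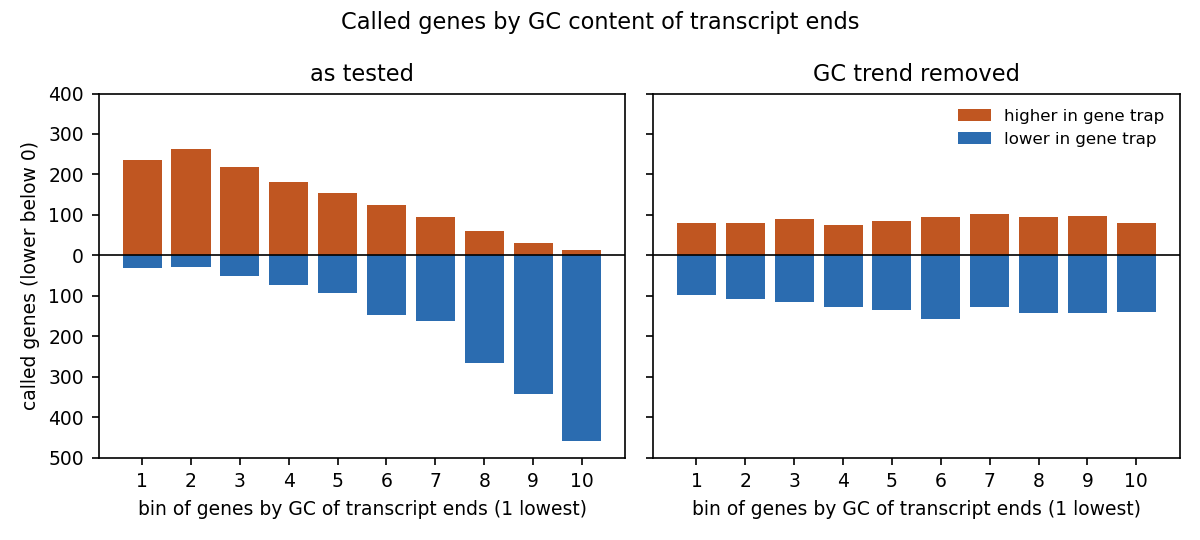
Number of genes that passed the test in each of 10 bins of about equal size of the tested genes by GC content of transcript ends (1 lowest, 10 highest), as tested (left) and with each library's GC trend removed (right); orange bars above 0 are genes higher and blue bars below 0 genes lower in gene-trap ventricles. As tested, genes that rose gather in the low bins (236 in bin 1) and genes that fell in the high bins (458 in bin 10), and with the trend removed every bin holds 75 to 103 higher genes.

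The largest increases among genes of at least 20 CPM whose groups did not overlap, 11 of which are described, included Phtf2 (chromosome 5, 20758663 to 20882124). It was at 33.8 to 63.0 CPM (median 46.1) in wild-type and 109 to 193 CPM (median 133) in gene-trap libraries, with wild-type replicate 6 the highest of its group. Its log2 fold change was 1.59 (edgeR adjusted p = 1.68e-05, SE 0.158). Rps23, a protein of the small ribosomal subunit, was at 25.3 to 86.2 CPM (median 63.0) and 108 to 213 CPM (median 173). Its log2 fold change was 1.51, and 54.8% of its transcript-end words recur in other genes, so the value is uncertain. Kbtbd2, a substrate adaptor of a cullin ubiquitin ligase that acts on a regulatory subunit of PI3 kinase, was at 14.4 to 44.2 CPM (median 32.6) and 52.2 to 86.3 CPM (median 79.7). Its log2 fold change was 1.28 (SE 0.218).

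The other 8 increases of this kind had log2 fold changes of 1.04 to 1.16. They were the nuclear cofactor gene Ankrd12 (1.16), the transcriptional coregulator gene Sertad2 (1.13), the nuclear noncoding RNA Malat1 (1.08), the cytoskeletal gene Dpysl3 (1.08), the splicing factor gene Mfap1a (1.06), Rab1a, a GTPase of traffic from endoplasmic reticulum to Golgi (1.06), Igbp1, a partner of protein phosphatase 2A (1.06), and Ms4a4d (1.04). Malat1 was the most abundant of them, at 479.6 to 1045 CPM (median 629.8) in wild-type and 1098 to 1832 CPM (median 1579) in gene-trap libraries. Wild-type replicate 1, at 1045 CPM, came closest to the gene-trap libraries, and replicate 6, at 593 CPM, did not. The 11 increases had edgeR adjusted p of 1.68e-05 to 0.00109. Wild-type replicate 6 was the highest wild-type library for 5 of the 11. Against it alone the log2 fold changes were 0.58 (Igbp1) to 1.32 (Malat1), positive by construction, since the genes were chosen for groups that do not overlap. Without the GC trend they were at 0.78 (Rab1a) to 1.35 (Phtf2) and each still passed. At the 3′ ends of Mfap1a and Rab1a lie Gm14018 and Cep68 on the opposite strand.

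Among the largest decreases of the same kind, 10 of which are described, Ddx3y came first. The mitochondrial proline tRNA mt-Tp was at 99.9 to 188 CPM (median 122) in wild-type and 22.7 to 54.7 CPM (median 45.6) in gene-trap libraries, with no library of either group near the other. Its log2 fold change was -1.63 (edgeR adjusted p = 0.000157, SE 0.197). The gene lies opposite the end of mt-Cytb, one of the most abundant transcripts of the tissue, whose log2 fold change was 0.06 (edgeR adjusted p = 0.798). Map1lc3a, an LC3 protein of the autophagosome membrane, was at 1350.3 to 3908 CPM (median 2769) and 773 to 1278 CPM (median 1063). Wild-type replicate 6, at 1350.3 CPM, lay near the top of the gene-trap range, and the log2 fold change was -1.42 (SE 0.205) over all libraries and -0.42 against replicate 6 alone. Acads, which encodes the short-chain acyl-CoA dehydrogenase of fatty acid oxidation, was at 231 to 659 CPM (median 449.7) and 135 to 203 CPM (median 161). It showed the same order, with replicate 6 the lowest wild-type library at 231 CPM, and log2 fold changes of -1.42 and -0.48. Pigu lies on the opposite strand at the end of Map1lc3a and Rpl37rt on the same strand at that of Acads.

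The remaining decreases were Prmt1, an arginine methyltransferase (-1.47), Faap100, of the Fanconi anaemia core complex (-1.38), Psmd13, of the proteasome lid (-1.35), Borcs6, of a complex that positions lysosomes (-1.31), Chtf8, of a clamp loader (-1.53), and the alpha globin gene Hba-a1 (-1.30). Of the transcript-end words 96.8% for Chtf8 and 92.4% for Hba-a1 recur in other genes, so these 2 values are uncertain. The 10 decreases had edgeR adjusted p of 3.91e-06 to 0.0121. Wild-type replicate 6 was the lowest wild-type library for 8 of these 10 genes, the exceptions being Ddx3y and mt-Tp. Against replicate 6 alone the log2 fold changes were -2.74 (Ddx3y) to -0.42 (Map1lc3a), negative by the same construction. With the GC trend removed 9 of the 10 still passed, and Hba-a1 was at -0.84 (edgeR adjusted p = 0.062).

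**Figure D4:**
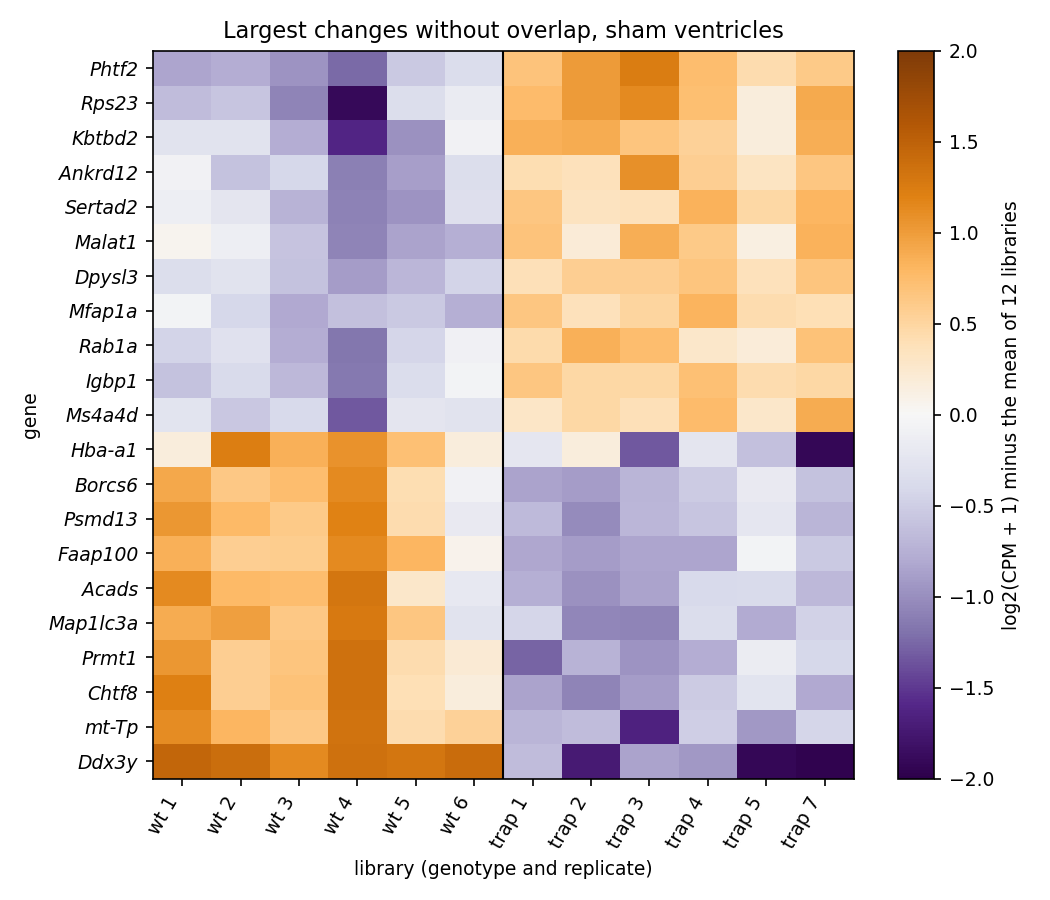
Relative levels of the 11 increases and 10 decreases described among genes of at least 20 CPM whose groups do not overlap, in each of the 12 sham libraries; colour is log2(CPM + 1) minus the mean of the 12 libraries, drawn from -2 to 2, orange higher and purple lower. Wild-type replicate 6 (wt 6) is paler than the other wild-type libraries for many of the genes.

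Genes with the smallest p once the GC trend was removed, and not already named, made up a further set. Of 7 such increases described, Foxn3, a forkhead transcription factor, was at 33.5 to 51.9 CPM (median 45.4) in wild-type and 72.8 to 105 CPM (median 91.7) in gene-trap libraries, without overlap and with a log2 fold change of 1.02, or 1.12 with the trend removed. The condensin gene Smc4 was at 9.07 to 12.7 CPM (median 12.1) and 21.6 to 32.1 CPM (median 25.8), with 1.21 and 0.93 for the same quantities. The mitochondrial ribosomal protein gene Mrpl51 (0.91), the immunoproteasome gene Psmb8 (1.0), Epb41l5, which acts in epithelial polarity (1.37), the chloride-proton exchanger gene Clcn4 (0.67) and the claudin gene Cldn12 (0.92) completed them. Of 8 decreases, Pygm, the glycogen phosphorylase of muscle, was the most abundant, at 368 to 783 CPM (median 519.8) in wild-type and 241 to 312 CPM (median 253) in gene-trap libraries. The groups did not overlap, wild-type replicate 6 was the lowest of its group at 368 CPM, and the log2 fold change was -1.04 (SE 0.146), or -0.85 with the trend removed. Ctns, the exporter of cystine from lysosomes, was at 12.6 to 16.2 CPM (median 14.5) and 4.61 to 8.54 CPM (median 5.64), with log2 fold changes of -1.25 and -1.28. The rest were Ccdc71 (-1.28), the mitochondrial valine tRNA mt-Tv (-0.95), Lage3, of the complex that modifies tRNA (-0.89), the endosomal GTPase gene Rab5c (-1.06), the pseudokinase gene Nrbp1 (-1.0) and the small nucleolar RNA gene Snord13 (-1.99). The tRNA gene mt-Tv lies between the 2 mitochondrial ribosomal RNA genes, so tags at their ends can reach it.

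Genes of the histone marks that Uty and Kdm6a act on changed in both directions. Of 31 tested genes of the H3K27 and H3K4 methylation machinery 5 rose and 4 fell, Uty among the latter, and the list's median log2 fold change was 0.15. The share that passed, 29.0%, lies near the 26.3% of all genes. Ezh1, a methyltransferase of Polycomb complex 2 found in non-dividing cells, fell from 32.4 to 56.6 CPM (median 44.1) in wild-type to 24.6 to 32.3 CPM (median 30.0) in gene-trap libraries. The groups did not overlap, and wild-type replicate 6 was the lowest of its group at 32.4 CPM (log2 fold change -0.62, SE 0.132). Ezh2, its counterpart in dividing cells, which is outside the rule for named genes and was chosen after its values were seen, rose by 0.69. Kmt2a, an H3K4 methyltransferase, and Ncoa6, a subunit of the complexes that hold Kdm6a, rose by 0.72 and 0.65. After removal of the GC trend 3 members rose and 3 fell.

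Contractile genes changed in both directions. Of 37 sarcomere and Z-disc genes 10 fell and 7 rose, where 14.3% and 11.9% of all genes did so, with a list median of -0.19, and with the GC trend removed 3 fell and 4 rose. Myl3, the ventricular essential light chain, was at 20093 to 50902 CPM (median 33719) in wild-type and 14782 to 23555 CPM (median 20108) in gene-trap libraries. The groups overlapped through wild-type replicate 6, at 20093 CPM. The log2 fold change was -0.83 (edgeR adjusted p = 0.00422, SE 0.186), or -0.51 with the GC trend removed. Ankrd1, a mechanosensitive titin partner, was at 1279.5 to 1959 CPM (median 1543) and 2062 to 3278 CPM (median 2415), with no overlap. It rose by 0.73 (SE 0.138), and Nebl, a Z-disc nebulin relative, by 0.65, or 0.41 with the trend removed. Set against wild-type replicate 6 alone the list's median was 0.12, of the opposite sign.

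Of 16 genes of the fetal and stress response of cardiomyocytes 4 rose and 5 fell, or 3 and 2 with the GC trend removed. The share that passed was 56.25%, against 26.3% of all genes. Among the members, the natriuretic peptide gene Nppb fell by 0.93 on the log2 scale. It was at 9.02 to 19.1 CPM (median 18.0) in wild-type and 4.68 to 13.8 CPM (median 7.92) in gene-trap libraries, in groups that overlapped because wild-type replicates 2 and 6 were low and gene-trap replicate 2 was high. Hmox1, heme oxygenase 1, was at 1.52 to 3.85 CPM (median 2.50) and 0.349 to 1.4 CPM (median 1.05), without overlap (log2 fold change -1.39, SE 0.341). Ankrd1 and Fhl1, a LIM protein of the sarcomere (0.59), rose, so the list did not move one way.

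Among 38 genes of calcium cycling and ion channels 8 rose and 9 fell (list median -0.06), a share of 44.7% against 26.3% of all genes. With the GC trend removed 5 rose and 8 fell. Cacnb2, a subunit of the L-type calcium channel, rose by 0.59. Jph2, which holds the membrane junction at which calcium release is triggered, fell from 186 to 464 CPM (median 304) to 113 to 178 CPM (median 157). Wild-type replicate 6, at 186 CPM, lay just above the highest gene-trap library, and the log2 fold change was -1.06 (SE 0.196). Fxyd1, phospholemman, which regulates the sodium pump, fell by 0.72, or by 0.37 with the trend removed.

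Genes of glucose and glycogen use fell far more often than they rose. Of 37 tested genes of glucose uptake, glycolysis and glycogen 15 fell and 2 rose, where 14.3% and 11.9% of all genes did so, and the list's median log2 fold change was -0.23. Removal of the GC trend left 14 that fell and 1 that rose, where 11.2% and 7.65% of all genes did so. Without wild-type replicate 6 18 fell and 4 rose, in a fit that passed 4402 genes in place of 3037, 2244 lower and 2158 higher. Against wild-type replicate 6 alone the median was -0.12 and no member passed. Pygm fell as given above. Gsk3a, a kinase that inhibits glycogen synthase, was at 35.0 to 56.3 CPM (median 42.1) in wild-type and 19.6 to 24.8 CPM (median 22.6) in gene-trap libraries. The groups were well apart, replicate 6 included at 40.6 CPM, with a log2 fold change of -1.0 (edgeR adjusted p = 0.000182, SE 0.129). Pdk2, which restrains pyruvate dehydrogenase, fell by 0.83, or by 0.49 with the trend removed, from 121 to 236 CPM (median 185) to 85.1 to 126 CPM (median 102), in groups that overlapped between wild-type replicate 6 and gene-trap replicate 5. Pkm, pyruvate kinase, fell by 0.79, with 43.8% of its transcript-end words recurring in other genes.

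Insulin signalling genes lay lower as a sum and moved both ways one by one. Of 39 genes of insulin, Akt and mTOR signalling 12 fell and 5 rose (list median -0.00251), a share of 43.6% against 26.3% of all genes. With the GC trend removed 7 fell and 5 rose. The summed level of the list was 2381 to 2767 CPM (median 2583) in wild-type and 2010 to 2239 CPM (median 2087) in gene-trap libraries, with no overlap. Much of this gap lies in Akt2 alone. Akt2, the Akt kinase most tied to insulin action, was at 304 to 613 CPM (median 461) in wild-type and 154 to 277 CPM (median 188) in gene-trap libraries. It did not overlap and fell by 1.16 (edgeR adjusted p = 0.000342, SE 0.172), with wild-type replicate 6 the lowest of its group at 304 CPM and 24.0% of its words shared with other genes. Pik3r2, a regulatory subunit of PI3 kinase, fell by 0.79, or by 0.27 with the GC trend removed, which no longer passed (edgeR adjusted p = 0.193). Eif4ebp2, a repressor of cap-dependent translation, rose by 0.89.

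Fat and respiratory genes moved both ways. Of 36 genes of fatty acid uptake and oxidation 9 fell and 5 rose (median -0.02), a share of 38.9% against 26.3% of all genes. With the GC trend removed 7 fell and 2 rose. Besides Acads, the lipase gene Pnpla2 fell by 0.85 and Mlycd, which removes the malonyl-CoA that blocks fatty acid entry into mitochondria, by 0.80. Mlycd was at 195 to 335 CPM (median 262) in wild-type and 105 to 192 CPM (median 147) in gene-trap libraries, without overlap. Ppargc1a, the coactivator that drives mitochondrial genes, was at 165 to 260.1 CPM (median 180.1) and 247 to 354 CPM (median 281) and rose by 0.56, or 0.36 with the trend removed, in groups that overlapped through wild-type replicate 1. Of 79 nuclear genes of oxidative phosphorylation 20 fell and 11 rose (median -0.03), a share of 39.2%, or 12 and 11 with the GC trend removed. Uqcrfs1, the Rieske protein of complex III, was at 619 to 1623 CPM (median 1259.9) and 1966 to 2740.3 CPM (median 2538). It did not overlap and rose by 1.03 (edgeR adjusted p = 0.000907, SE 0.177). The complex I genes Ndufa12 and Ndufa11 fell by 0.76 and 0.73, in groups that overlapped, and Ndufa11 by 0.34 with the trend removed. For Ndufa12 30.8% of the transcript-end words recur in other genes. Of 10 tested mitochondrially encoded genes other than tRNAs edgeR passed 0, with 1 at an unadjusted p under 0.05, while DESeq2 passed 2 and limma voom 1. After removal of the GC trend edgeR passed 3 of them as lower.

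Translation genes moved in both directions. Of 77 cytosolic ribosomal protein genes 16 rose and 11 fell (median 0.09), a share of 35.1% against 26.3% of all genes. With the GC trend removed 21 of the 77 rose and 8 fell, where 7.65% and 11.2% of all genes did so. After Rps23, Rps27a rose from 49.9 to 127 CPM (median 105) in wild-type to 174 to 199 CPM (median 189.5) in gene-trap libraries (log2 fold change 0.92), Rpl36a rose by 0.58 and Rps10 fell by 0.79, or by 0.48 with the trend removed. Of the transcript-end words of these 3 genes 42.3%, 41.1% and 31% recur in other genes. Of 74 genes of the mitochondrial ribosome 12 rose and 11 fell (median -0.06), a share of 31.1%, or 8 and 6 with the GC trend removed. Mrpl51 was at 95.7 to 135 CPM (median 110.1) and 194 to 227 CPM (median 219.9), with no overlap. Mrpl20 rose by 0.60 and Mrps18c by 0.59 (0.39 with the trend removed), while Mrps18a fell by 0.68. For Mrps18c 39.3% of the words recur in other genes. Of 58 splicing and RNA-binding protein genes 12 rose and 6 fell, a balance that turned to 3 and 7 with the GC trend removed. Snrpd3, a core protein of the small nuclear ribonucleoproteins, fell from 86.7 to 168 CPM (median 103) to 49.5 to 71.6 CPM (median 59.2), without overlap. U2af2, which binds the end of the intron, fell by 1.12, Snrpa by 0.99, and Srsf2 rose by 0.59, or 0.36 with the trend removed. For Snrpa 30.9% of the words recur in other genes. Of 39 Mediator and RNA polymerase II genes 6 fell and 3 rose, a share of 23.1%, or 4 and 2 with the GC trend removed. The members named by rule were Med25 (-0.85), Med27 (-0.79), Med20 (-0.71) and Polr2f (-0.54). With the trend removed Med25 was at -0.43 (edgeR adjusted p = 0.0719) and Polr2f at -0.10 (edgeR adjusted p = 0.504), and neither passed.

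Chaperone genes rose more often than they fell. Of 42 genes of the heat shock and unfolded protein responses 14 rose and 3 fell, where 11.9% and 14.3% of all genes did so, with a list median of 0.31, and 10 rose and 3 fell with the GC trend removed. Hspa4, a nucleotide exchange factor of Hsp70, was at 126 to 179 CPM (median 166) in wild-type and 238 to 395 CPM (median 308) in gene-trap libraries. No gene-trap library came below 238 CPM, while wild-type replicate 6 had the highest value of its group (log2 fold change 0.98, edgeR adjusted p = 0.000182, SE 0.129). Its relative Hspa4l was at 38.5 to 43.1 CPM (median 41.2) and 57.7 to 94.1 CPM (median 75.8). The wild-type libraries, replicate 6 included, lay within a narrow band, and the log2 fold change was 0.89. Bag3, the co-chaperone that clears damaged sarcomere proteins, was at 304 to 507 CPM (median 383) and 637 to 796 CPM (median 728), again without overlap, and rose by 0.85. Hsp90b1, the Hsp90 of the endoplasmic reticulum, rose by 0.97. The list's median was 0.36 against wild-type replicate 6 alone, where no member passed.

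Of 34 constitutive proteasome genes 8 rose and 6 fell (6 and 5 with the GC trend removed), so subunits of one complex moved in opposite directions. The share that passed was 41.2%, against 26.3% of all genes. Psmd13 was at 103 to 269 CPM (median 190.0) in wild-type and 56.9 to 99.6 CPM (median 72.4) in gene-trap libraries, with wild-type replicate 6 the lowest of its group. Psmd6, another subunit of the regulatory particle, was at 64.0 to 74.9 CPM (median 72.0) and 101 to 130.0 CPM (median 117) and rose by 0.72, and the core genes Psma4 and Psma3 rose by 1.0 and 0.73. Cox8b lies on the opposite strand at the end of Psmd13, and 26.4% and 26.2% of the words of Psma4 and Psma3 recur in other genes. Of 45 genes of ubiquitin and NEDD8 conjugation 7 fell and 6 rose, a share of 28.9%, or 8 and 3 with the GC trend removed. Ube2m, the main enzyme that passes NEDD8 to cullins, fell from 83.6 to 162 CPM (median 145) to 55.5 to 63.8 CPM (median 62.5). The gene-trap libraries were close together and wild-type replicate 6, at 83.6 CPM, was the nearest wild-type library (log2 fold change -1.13, SE 0.139). Stub1, a ligase that works with chaperones, fell by 0.83, or by 0.41 with the trend removed. The cullin gene Cul5 rose by 0.50, and with the trend removed was at 0.23 and did not pass (edgeR adjusted p = 0.109).

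Interferon-response genes that passed were nearly all higher in gene-trap ventricles. Of 44 tested genes 16 rose and 1 fell, where 11.9% and 14.3% of all genes did so, and the list's median log2 fold change was 0.35. The summed level of the list was 576 to 702 CPM in wild-type and 751 to 912 CPM in gene-trap libraries. The groups did not overlap in this sum, and wild-type replicate 6 had the lowest sum of the 12. Gene by gene, 3 of the 44 members did not overlap, where 7.55% of all genes did not. After removal of the GC trend 10 rose and 1 fell, and against wild-type replicate 6 alone the median was 0.50 with no member passing. Psmb8, an immunoproteasome subunit that interferon induces, was at 7.97 to 14.5 CPM (median 13.0) in wild-type and 21.3 to 29.6 CPM (median 24.3) in gene-trap libraries, without overlap and with wild-type replicate 6 the highest of its group. Its log2 fold change was 1.0 (edgeR adjusted p = 0.00032, SE 0.149). Gbp3, a guanylate-binding GTPase, was at 3.30 to 5.55 CPM (median 4.08) and 6.71 to 11.3 CPM (median 8.41), also without overlap, and rose by 1.05. The immunity-related GTPase gene Iigp1 rose by 1.04 and Ifi203, of the p200 family, by 0.84, in groups that overlapped. Gm20496 lies on the opposite strand at the end of Psmb8 and Mndal on the same strand at that of Ifi203.

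Immediate early genes gave 3 increases and no decrease among 20 tested, a share of 15% that lies below that of all genes, and with the GC trend removed 5 rose and 1 fell. These were Klf6 (0.87), Fosl2 (0.59) and the stress factor gene Atf3 (1.29). Of 29 cell cycle genes 5 rose and 2 fell, also with the GC trend removed, a share of 24.1% against 26.3% of all genes. Smc4 was given above, Cdk1, the kinase that starts mitosis, rose from 0.824 to 2.79 CPM (median 1.68) in wild-type to 2.34 to 5.26 CPM (median 4.43) in gene-trap libraries, the cyclin-dependent kinase inhibitor gene Cdkn1c rose by 0.54 and the cyclin gene Ccnd3 fell by 0.70, or by 0.39 with the trend removed. Of 24 core cardiac transcription factor genes 6 fell and 4 rose, a share of 41.7%, or 3 and 2 with the GC trend removed. Gata4 was at 25.8 to 45.5 CPM (median 31.9) and 16.4 to 29.0 CPM (median 21.9), in overlapping groups, and fell by 0.67. Prox1 fell by 0.63 and Nfatc3 rose by 0.47, the latter at 0.29 with the trend removed (edgeR adjusted p = 0.087). Nkx2-5, the homeodomain factor of early heart development, fell by 0.64, from 49.9 to 92.0 CPM (median 63.1) to 35.5 to 49.1 CPM (median 41.1), and was at 0.02 with the GC trend removed (edgeR adjusted p = 0.925). Of 17 clock genes 4 fell and 1 rose, a share of 29.4%, or 3 and 1 with the trend removed. Nr1d1 fell by 0.95, Cry1 by 0.94 and Cry2 by 0.37, and Dbp rose by 0.64. Thra lies on the opposite strand at the end of Nr1d1. Of 25 genes of androgen and steroid signalling 4 fell and 2 rose, a share of 24.0% against 26.3% of all genes, and with the GC trend removed 1 fell and 1 rose. The receptor chaperone gene Fkbp4 was at -0.43, the glucocorticoid receptor gene Nr3c1 at 0.40 and its target Fkbp5 at 0.61. With the trend removed Fkbp4 was at -0.23 (edgeR adjusted p = 0.201) and Nr3c1 at 0.25 (edgeR adjusted p = 0.0743), and neither passed.

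**Figure D5:**
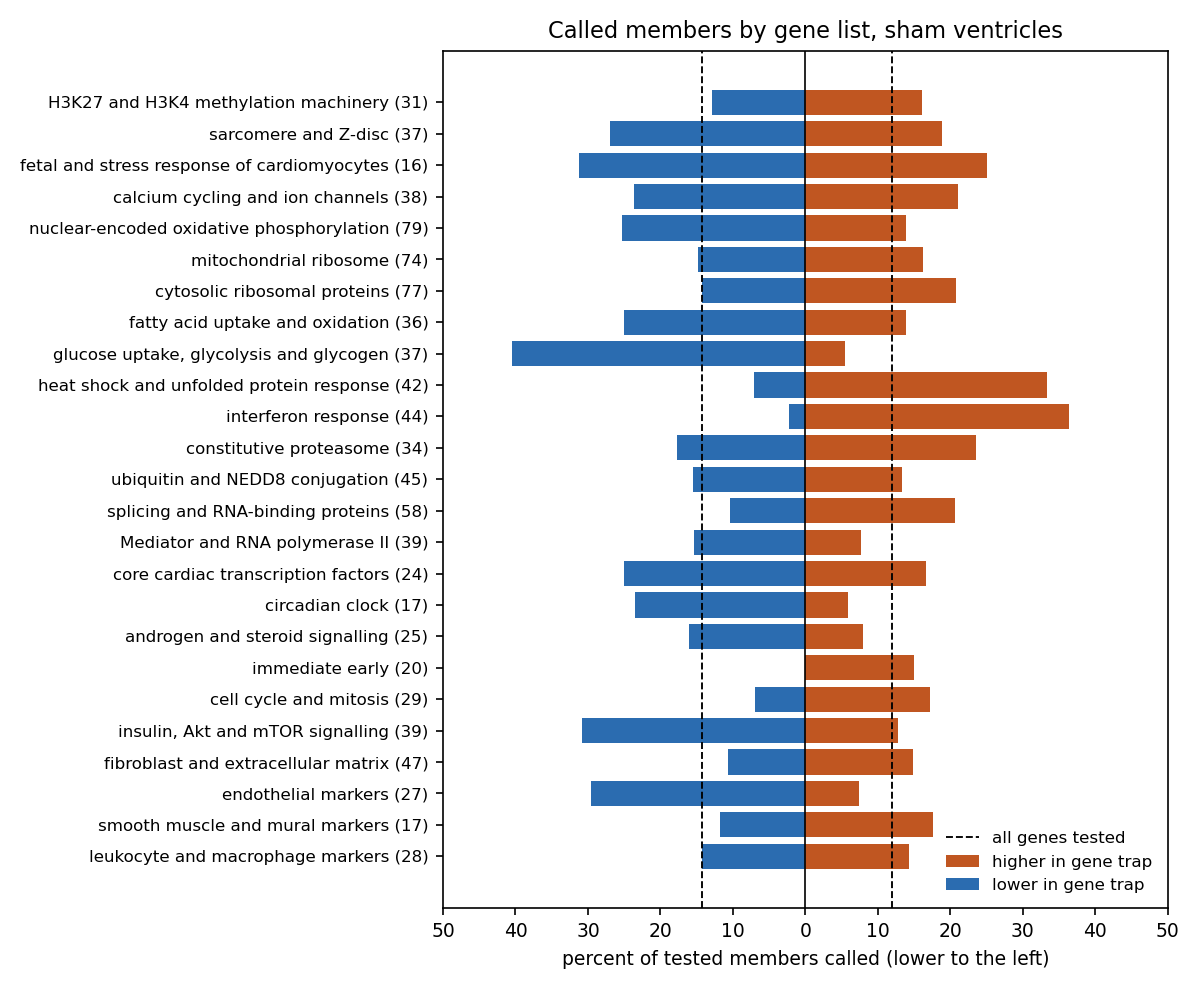
Percent of the tested members of each gene list that passed the test, to the right for members higher and to the left for members lower in gene-trap sham ventricles, with the number tested in brackets; dashed lines give the percent of all genes tested, 11.9% higher and 14.3% lower. Interferon-response and heat shock genes reach past the line on the right and glucose genes past that on the left. Other lists also pass a line, such as endothelial genes on the left and fetal, sarcomere, calcium and insulin genes on both sides. Mediator and steroid genes stay near both.

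Marker lists of other cell types moved in part. Of 27 endothelial markers 8 fell and 2 rose (median -0.26), a share of 37.0% against 26.3% of all genes. With the GC trend removed 7 fell and 2 rose. Aqp1, a water channel of small vessels, was at 456 to 1177 CPM (median 857) in wild-type and 231 to 499 CPM (median 369) in gene-trap libraries, in groups that overlapped through wild-type replicate 6. It fell by 1.15, Egfl7 by 0.88 and the junction gene Pecam1 by 0.57. The summed level of the list, 2855 to 3545 and 2793 to 3799 CPM, overlapped. Fabp4, a fatty acid binding protein of capillaries and fat and the most abundant member, rose from 176 to 923 CPM (median 436) to 916 to 1722 CPM (median 1032) (log2 fold change 1.36, SE 0.322). Its groups overlapped through wild-type replicate 6, at 923 CPM. Fabp4 is also on the list of adipocyte markers, whose sum was 785 to 1303 CPM in wild-type, with replicate 6 the highest, and 1312 to 2008 CPM in gene-trap libraries. The defining adipocyte genes Adipoq, Plin1 and Lep averaged 0.697, 1.68 and 0.0225 CPM over the 12 libraries. Of the other tested adipocyte markers Cidea and Plin4, which cardiac muscle also expresses, fell by 0.71 and 0.49, and Plin4 was at -0.23 with the GC trend removed (edgeR adjusted p = 0.205).

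Of 47 fibroblast and extracellular matrix genes 7 rose and 5 fell, a share of 25.5%, or 7 and 4 with the GC trend removed. Col1a2, a chain of collagen I, was at 33.8 to 92.2 CPM (median 61.2) in wild-type and 92.3 to 132 CPM (median 109) in gene-trap libraries and rose by 0.83, and the collagen receptor gene Ddr2 rose by 0.46. Col6a2, a chain of collagen VI, fell from 54.1 to 87.9 CPM (median 58.3) to 28.9 to 48.3 CPM (median 34.9), by 0.82, and Fbln1 by 0.71. Of 28 leukocyte and macrophage markers 4 rose and 4 fell, or 4 and 1 with the GC trend removed. The share that passed, 28.6%, lies near the 26.3% of all genes. The list's sum was 720.4 to 1033 CPM in wild-type and 606 to 838 CPM in gene-trap libraries. Tlr4, the receptor for lipopolysaccharide, was at 6.59 to 12.6 CPM (median 10.6) and 20.1 to 28.0 CPM (median 25.7), without overlap and with replicate 6 in the midst of its group. On the log2 scale it rose by 1.27 (edgeR adjusted p = 0.000157, SE 0.158). Lyve1 rose by 1.17, while the complement gene C1qa and the class II gene H2-Eb1 fell by 1.0 and 0.73. With the trend removed C1qa was at -0.53 (edgeR adjusted p = 0.0596) and no longer passed, and H2-Eb1 at -0.57 (edgeR adjusted p = 0.0297). The lymphocyte genes Cd3e, Cd8a and Cd79a averaged 0.106, 0.123 and 0.0492 CPM. Of 17 smooth muscle and mural markers Kcnj8, Cspg4 and 1 more rose and Smtn and Abcc9 fell, a share of 29.4%. These 4 named genes were at 0.45, 0.59, -0.70 and -0.26 on the log2 scale. With the GC trend removed Kcnj8 was at 0.26 and Smtn at -0.30, which did not pass (edgeR adjusted p = 0.102 and 0.0964), and Abcc9 at -0.51.

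Of 6 tested erythroid markers 2 fell, both alpha globin genes, and 1 rose, and with the GC trend removed the 1 that rose was the only one to pass. The sum of the list overlapped, at 3206 to 6883 CPM in wild-type and 1096 to 5153 CPM in gene-trap libraries. Hba-a1 was at 691 to 1441 CPM (median 1059) and 162 to 688 CPM (median 459.6), with 691 CPM in wild-type replicate 6 next to 688 CPM in gene-trap replicate 2. Hba-a2 was at -1.25 on the log2 scale, or -0.81 with the trend removed (edgeR adjusted p = 0.0881). Of the transcript-end words 92.4% for Hba-a1 and 88.6% for Hba-a2 recur in other genes, so both values are uncertain. Haemoglobin transcripts come from red cells in the sample, whose number was not measured, and Bpgm, a red cell enzyme that other tissues also make, rose by 0.55. Of 3 tested epicardial markers Wt1 rose, from 1.76 to 5.45 CPM (median 2.82) to 5.02 to 13.0 CPM (median 6.33) (1.24), and the mesothelial genes Upk3b and Msln averaged 0.617 and 0.678 CPM. Of 8 Schwann cell and neuronal markers 1 rose and 1 fell, the latter Dbh (-0.91), which encodes an enzyme of noradrenaline synthesis, and with the GC trend removed edgeR passed neither (Dbh at -0.74, edgeR adjusted p = 0.0634). Of 9 atrial markers Stard10 fell (-1.05) and Nr2f2 rose (0.40), at -0.60 and 0.33 with the trend removed, where Nr2f2 did not pass (edgeR adjusted p = 0.1). Of 8 ventricular markers Myl3 fell, and of 2 tested skeletal muscle markers edgeR passed 0, with 1 at an unadjusted p under 0.05, while DESeq2 and limma voom each passed 1. Ckm, a skeletal muscle marker that the heart also expresses, was at -0.26 (edgeR adjusted p = 0.218). Of the tested members 50% of erythroid, 33.3% of epicardial and 25% of Schwann cell and neuronal markers passed. Of atrial and ventricular markers 22.2% and 12.5% passed, against 26.3% of all genes. Such short lists leave each share resting on few genes. The part of these cell types in the changes above was not tested.

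The genotype effect in sham ventricles was set against that in castrated ventricles in a fit to all 26 libraries. Fold changes in sham below are those of the 12 sham libraries, and those in castrated ventricles come from the fit to 26. The difference between the effects passed for 2474 of 12291 genes (20.1%; edgeR quasi-likelihood test, Benjamini-Hochberg). Both this difference and the effect in sham hold the same 12 sham libraries, so an overlap of the 2 sets with the same sign is partly built in. Of the 3037 genes that passed in sham 1710 were among the 2474 with the same sign. Uty and Ddx3y were not: the effect in sham minus that in castrated was -0.27 (edgeR adjusted p = 0.749, SE 0.529) and 0.08 (edgeR adjusted p = 0.898, SE 0.372) on the log2 scale. Map1lc3a had a log2 fold change of -1.42 in sham and 0.28 in castrated ventricles, a difference of -1.72 (edgeR adjusted p = 0.00588, SE 0.322). Phtf2 had 1.59 and 0.39, a difference of 1.17 (edgeR adjusted p = 0.0371, SE 0.394). Of the 28 Y-linked, X-linked and largest-change genes described above, the difference passed for 18. For Rps23 the values were 1.51 and 0.48, and the difference did not pass (edgeR adjusted p = 0.0544). Without castrated gene-trap replicates 1 to 4, in a fit with fewer libraries, edgeR passed 0 differences, with 1721 at an unadjusted p under 0.05. Library measures were taken in sham only, so this fit does not say whether those replicates differ from other castrated libraries. That wild-type sham replicates 1 to 5 stand apart enters the difference, and its part was not tested.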

How the data were processed

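Per the labels' protocols, RNA of frozen left ventricle went into QuantSeq forward libraries, which read 3′ ends. The submitters' processing notes list, with no role for each, the builds GRCm38 and mm10 and the tools FastQC, CASAVA 1.4, featureCounts 1.6.0, STAR and DESeq2 1.22.2. The deposited tables hold raw counts per gene and library, per the file headers. They also hold the authors' own comparison, wild type over gene trap, whose deposited columns are a mean signal over libraries, the log2 fold change and its standard error, a score that is the ratio of both, and raw and adjusted p-values. These were used only as an alternative. There, 414 genes whose 12 sham counts are all 0 have a mean above 0.

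Entries for unassigned reads and 4984 genes listed without counts were left out. Of each of the 12 columns 42.0% to 45.9% were reads with no unique alignment. Counts were tested with edgeR 4.0.16 in R 4.3.3 (filterByExpr, TMM scaling, robust quasi-likelihood fit and F test) with Benjamini-Hochberg adjustment over all genes tested. CPM use the TMM factors of the 12 libraries. Transcript ends are the last 400 nt of transcripts of GENCODE M21, and the GC trend was removed as an offset, a natural spline with 4 degrees of freedom per library. The scripts were tested on simulated data. Groups were set from titles, and two-sided exact permutation compared library measures.

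The genes named were the 4 Y-linked genes and their X partners, the 12 higher and 12 lower genes with the largest changes among genes that passed, averaged at least 20 CPM and did not overlap, the 8 higher and 8 lower with the smallest p under GC removal among those that passed both ways, and per list at most 4 members, those of smallest p, or the most abundant member where none passed. Some genes that the rule names are not reported here. Predicted genes, Riken clones and pseudogenes were left out of the ranked sets. Erdr1 and Ezh2 and the averages of marker genes are outside this rule. Members, lists and the rule were chosen with earlier results of these data known, so lists are described by counts and medians with no test of the list. Alternatives tried were other scalings, filters and thresholds, DESeq2 1.42.0, limma 3.58.1 voom with sample weights, a replicate block, GC removal, a fit to 4 groups and leaving out each library. The fits with single wild-type replicates other than 6, and the list counts under GC removal and without or with only replicate 6, were added after the data were seen.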

Additional observations from a re-analysis of the deposited data

Results flagged for a closer look

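Samples far from the rest of their group. For each named gene and library measure, the gap between the highest or lowest of the 6 libraries of a group and its nearest neighbour was divided by the range of the group. In 24 of 286 groups the quotient was above Dixon's 95% critical value, where chance puts about 1 in 20 groups. Wild-type replicate 4 was the library set apart most often. It was high for Nrbp1 (131 CPM), Pnpla2 (508 CPM), Med27 (23.5 CPM), Cry1 (14.0 CPM), Fbln1 (59.3 CPM), Pecam1 (196 CPM) and C1qa (286 CPM), low for Ms4a4d (7.83 CPM) and Nr3c1 (55.4 CPM), and had the fewest genes detected, 15442. Of the other wild-type libraries, replicate 1 stood apart for Uty (9.85 CPM), replicate 2 for Bpgm (43.7 CPM) and replicate 6 for Srsf2 (112 CPM). Among gene-trap libraries, replicate 5 stood apart for Faap100 (27 CPM), Lage3 (38.3 CPM), Rps10 (241 CPM), U2af2 (45.8 CPM) and Klf6 (77.2 CPM), and replicate 3 for Ankrd12 (66.7 CPM). Replicate 4 stood apart for Epb41l5 (31.2 CPM) and Med25 (11.4 CPM), replicate 7 for Fhl1 (138 CPM) and Fbln1 (31.6 CPM), and replicate 2 for Atf3 (7.69 CPM).

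Genes whose genotype effect differed between sham and castrated ventricles. Of the 28 Y-linked, X-linked and largest-change genes, 18 had a difference between the effects that passed (edgeR quasi-likelihood test of the interaction, Benjamini-Hochberg). As the effect in sham minus that in castrated, on the log2 scale, it was 1.17 for Phtf2, 1.4 for Kbtbd2, 1.12 for Ankrd12, 1.27 for Sertad2, 1.01 for Malat1, 0.81 for Dpysl3, 0.82 for Mfap1a, 1.13 for Rab1a, 0.91 for Igbp1 and 1.06 for Ms4a4d. It was -1.4 for mt-Tp, -0.85 for Prmt1, -1.72 for Map1lc3a, -0.90 for Acads, -1.41 for Faap100, -1.03 for Psmd13, -1.0 for Borcs6 and -1.83 for Hba-a1. The 18 genes are among those with the largest sham changes, which were chosen from the same sham libraries. Without castrated gene-trap replicates 1 to 4, a fit with fewer libraries, edgeR passed 0 differences over all genes, with 1721 at an unadjusted p under 0.05.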

How the results depend on the processing

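The count of 3037 genes in sham was 2144 to 4402 without single libraries (4402 without wild-type replicate 6), 2718 to 4062 with other scalings, filters and tools, and 2176 with the GC trend removed. It moved more with a threshold of 0.01 (1338), in the authors' deposited table (1376), and with 1 wild-type library alone (206, 8, 355 and 96 for replicates 1, 2, 3 and 5, and 0 for replicate 6, with 1311 at an unadjusted p under 0.05). The deviations of same-numbered libraries from their group means correlated with r of 0.0882, -0.134, -0.137, 0.310 and -0.129. The labels do not say whether a number marks a shared litter or day, and these few values cannot decide it. With the replicate block on replicates 1 to 5 the counts were 3733, against 3745 for the same libraries without it, and 2758 for the difference between sham and castrated. That difference (2474) fell to 518 at a threshold of 0.01, to 1435 with the GC trend removed and to 0 without castrated gene-trap replicates 1 to 4, with 1721 at an unadjusted p under 0.05. The last of these fits holds fewer libraries. Some log2 fold changes, most of which did not pass, turned sign. With the GC trend removed these were Kdm6a (-0.20), Eif2s3x (-0.12), mt-Cytb (-0.20), Nkx2-5 (0.0205) and Ckm (0.000654). Against wild-type replicate 6 alone they were Eif2s3x (-0.70), Kdm5c (-0.0278), mt-Cytb (-0.10), Fkbp4 (0.20), Fkbp5 (-0.10), Dbh (0.0712) and Ckm (0.11). In the authors' deposited table they were Eif2s3x (-0.13) and mt-Cytb (-0.0716), and with limma voom Kdm6a (-0.10). Without single libraries the ranges were -0.0803 to 0.14 for Kdm6a, -0.10 to 0.30 for Eif2s3x and -0.0324 to 0.12 for mt-Cytb, and the difference in mitochondrially encoded counts was -0.310 to 0.544 percentage points. The cause of these changes was not tested. Depth limits the lowest genes, such as Uty in gene-trap libraries with 1 to 6 counts.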
